A study of Mus musculus with 12 samples.

Results

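Bhlhe22, Ntm and Tex15 are 3 of the 19049 genes listed in the deposited counts of mouse colonic stroma. They were chosen by their counts in these libraries, low in normal adult stroma and higher both in growing colon and in tumours, so those 2 differences are described here without a test. All 3 were found in the table and all 3 passed the filter on low counts, which 18727 genes passed. The libraries came from C57BL/6J mice: 4 from normal colon at 8 weeks, 4 from colon at postnatal day 14 (P14), labelled 2 weeks, and 4 from colonic tumours at 12, 13, 14 and 14 weeks. Tumour-bearing mice had been treated with AOM, the carcinogen azoxymethane, and with DSS, an irritant (dextran sodium sulfate) that damages the gut epithelium. The labels give no such treatment for the other groups. The labels name no engineered allele. Cells were freed from the colon by collagenase and dispase and sorted as live cells without EPCAM, CD31, CD45 or TER119. These mark epithelium, endothelium, blood-derived cells and the red lineage. Every group is a mixture of fibroblasts and other cells, and markers of colonic and squamous epithelium were also detected, as given further on.

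The 3 genes are best known outside the gut stroma. Bhlhe22 encodes a basic helix-loop-helix transcription factor of developing neurons, which binds E-box DNA and works as a repressor together with the zinc finger protein Prdm8. Ntm encodes neurotrimin, an adhesion protein of the IgLON family, whose members carry immunoglobulin domains, are anchored to the membrane by a lipid and bind each other on neurons. Tex15 encodes a large protein of germ cells, needed in the testis for meiotic recombination and for the silencing of transposons that is guided by piRNAs, small RNAs of the germline. The genes lie on different chromosomes in GENCODE M21 on GRCm38. Bhlhe22 (ENSMUSG00000025128) spans chromosome 3 from 18054174 to 18057517 on the plus strand, with 1 annotated transcript. Ntm (ENSMUSG00000059974) spans 968.4 kb of chromosome 9, from 28994750 to 29963141 on the minus strand, with 11 transcripts. Tex15 (ENSMUSG00000009628) spans chromosome 8 from 33516738 to 33585582 on the plus strand, with 4 transcripts. Their exons total 3.34, 8.08 and 9.62 kb. The exons of the 3 genes share 0 bases with any other annotated gene, which bears on the counts because the strand setting of the counting is not given.

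The promoter windows of Ntm are shown because the set of windows used here held none for Bhlhe22 or Tex15. RefSeq on GRCm38.p6 gives 2 starts of Ntm within its span, and each window runs from 250 bases before to 50 after a start. No transcript start of GENCODE M21, which gave the span above, lies in either window. The first lies at chr9:29413403-29413702 and the second at chr9:29412636-29412935, both on the minus strand and printed 5′ to 3′. Capitals mark E-boxes, the letters CANNTG, searched on both strands.
Ntm start 1: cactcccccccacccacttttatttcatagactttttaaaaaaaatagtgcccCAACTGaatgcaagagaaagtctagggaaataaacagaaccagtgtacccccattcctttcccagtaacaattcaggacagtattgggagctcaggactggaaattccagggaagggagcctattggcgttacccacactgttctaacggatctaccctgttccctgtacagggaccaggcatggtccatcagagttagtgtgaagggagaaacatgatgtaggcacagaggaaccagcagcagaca
Ntm start 2: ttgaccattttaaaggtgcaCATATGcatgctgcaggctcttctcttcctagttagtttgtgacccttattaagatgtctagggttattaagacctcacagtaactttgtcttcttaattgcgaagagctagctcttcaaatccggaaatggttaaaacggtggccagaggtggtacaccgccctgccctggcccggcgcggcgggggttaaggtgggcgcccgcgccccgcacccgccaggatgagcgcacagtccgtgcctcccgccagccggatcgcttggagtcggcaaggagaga

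Each window held 1 E-box, a motif found in 72.3% of the 32851 promoter windows of the same table. The windows differed in base composition: the first held 2 CpG dinucleotides at 47.3% GC, the second 19 CpG at 55.7% GC, against medians of 7 CpG and 52.7% GC over all windows. Neither held the letters TATAAA, which 13.6% of windows hold. The counts are summed per gene, so they do not show which start was used.

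The normal adult libraries held 26392364 to 29911817 counts, the P14 libraries 29499836 to 38799033 and the tumour libraries 15449444 to 28471598. The shallowest was tumour replicate 4, in which 9.14% of listed genes were at 0. Per the protocol each group came from 2 males and 2 females. Against this, Xist, the RNA of the inactive X chromosome, was at 481.4 to 1395 CPM in all 4 tumour libraries, whose counts of 4 Y-linked genes together did not exceed 1. It was below 1 CPM in replicates 1 and 2 of normal adult and in replicates 2 and 3 of P14. Sex and tumour can be told apart only in part, so values from the 8 libraries with Xist are given beside the results. Fibroblast markers were high in every group, with a summed level of 32800 to 42100 CPM over 10 genes in normal adult, 78000 to 102000 CPM in P14 and 13100 to 35100 CPM in tumour libraries. The protocol gives 4 mice per group. The p-values weigh differences between groups against the spread between libraries, estimated over all 12 libraries together. Values after ± are SDs for CPM and SEs for log2 fold changes, with n = 4 libraries per group.

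Bhlhe22 was near the floor of the data in normal adult stroma and reached the highest level in tumours. CPM here is a share of the library total, scaled by TMM factors. Its level was 1.38, 0.664, 0.793 and 0.954 CPM in normal adult replicates 1 to 4, which stood for 18 to 43 counts. It was 6.04, 6.56, 6.46 and 4.27 CPM in the P14 replicates, and 8.19, 26.1, 28.6 and 14.9 CPM in the tumour replicates. No library of one group fell within the range of another. Within groups, P14 libraries were the closest to each other, with a coefficient of variation of 18.3%, against 32.8% in normal adult and 49.3% in tumour libraries. The group means were 0.947 ± 0.311, 5.83 ± 1.07 and 19.4 ± 9.59 CPM. The log2 fold change was 2.61 ± 0.39 at P14 and 4.35 ± 0.41 in tumours against normal adult.

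Ntm followed the same order. Normal adult replicates 1 to 4 had 0.641, 0.959, 1.01 and 0.92 CPM, from 20 to 28 counts. The P14 replicates had 6.13, 5.08, 3.08 and 5.66 CPM, and the tumour replicates 7.15, 36.8, 21.2 and 12.9 CPM. Its groups did not overlap either, and tumour replicate 2 stood 5.15-fold above tumour replicate 1. The means were 0.882 ± 0.165, 4.99 ± 1.34 and 19.5 ± 12.9 CPM, and the log2 fold changes against normal adult were 2.50 ± 0.45 at P14 and 4.47 ± 0.48 in tumours.

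Tex15 was the lowest of the 3 in normal adult stroma and the most variable in tumours. It had 0.737, 0.553, 0.721 and 0.409 CPM in normal adult replicates 1 to 4, from 12 to 23 counts, and 5.33, 6.97, 3.7 and 4.07 CPM in the P14 replicates. The tumour replicates had 10.2, 5.69, 28.1 and 2.64 CPM, so that tumour replicate 4 lay below every P14 library and replicate 3 above all others. The tumour values spanned 10.6-fold, with a coefficient of variation of 97.6%. The means were 0.605 ± 0.155, 5.02 ± 1.47 and 11.7 ± 11.4 CPM, and the log2 fold changes against normal adult were 3.04 ± 0.61 at P14 and 4.26 ± 0.64 in tumours.

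**Figure D1:**
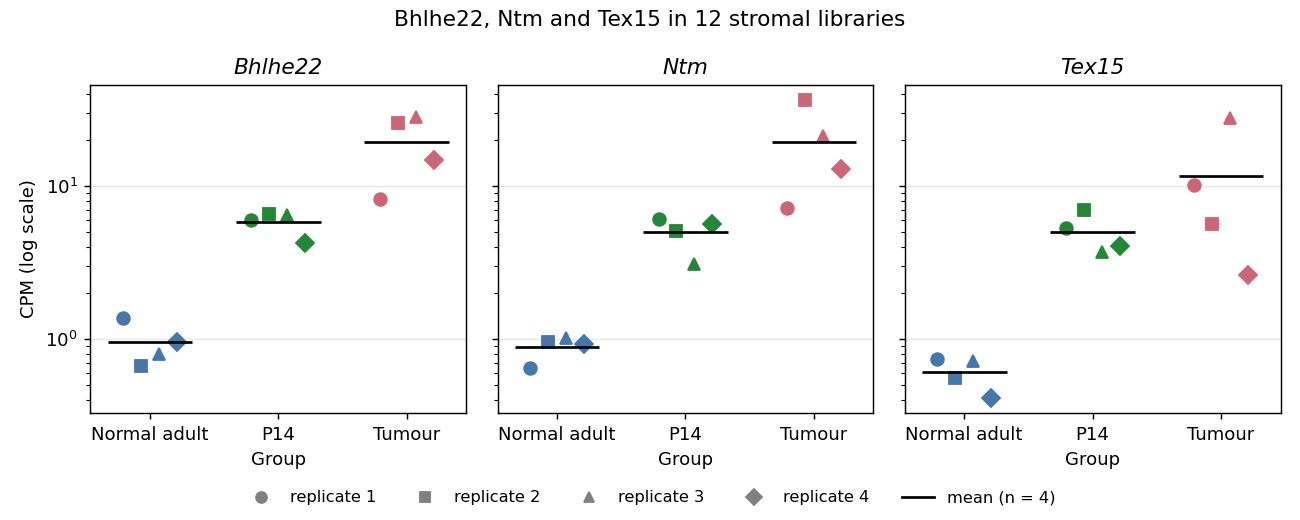
Level of Bhlhe22, Ntm and Tex15 in each of 12 libraries, in CPM on a log axis, by group, with 1 symbol per replicate and a line at the mean of 4. All 3 genes lie below 1.5 CPM in normal adult libraries, and only the tumour values of Tex15, from 2.64 to 28.1 CPM, overlap those of P14.

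The 3 genes had a place near the top of the table for this pattern, as their choice fixed. At an adjusted p under 0.05, 14.9% of all tested genes were called higher at P14 and 10.6% higher in tumours against normal adult, and 532 genes, 2.84%, were called higher in both. Ranked by the smaller of the 2 log2 fold changes, Tex15 was number 14, Bhlhe22 number 23 and Ntm number 27 of 18727. Groups that do not overlap, with the first group higher, were found in 21.6% of tested genes at P14 and in 11% in tumours. Among the libraries with Xist alone (2 normal adult, 2 P14 and 4 tumour), the log2 fold changes were 2.55, 2.61 and 3.05 at P14 and 4.47, 4.33 and 4.36 in tumours for Bhlhe22, Ntm and Tex15.

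Per length, the 3 genes were rare transcripts in normal adult stroma. In tumours Bhlhe22 and Ntm were middling ones and Tex15 was lower. Bhlhe22 had 0.283 ± 0.0929 CPM per kb of exon in normal adult, 1.74 ± 0.319 in P14 and 5.81 ± 2.87 in tumour libraries. The corresponding levels of Ntm were 0.109 ± 0.0204, 0.617 ± 0.166 and 2.42 ± 1.60 CPM per kb, and those of Tex15 were 0.0629 ± 0.0161, 0.521 ± 0.153 and 1.21 ± 1.18 CPM per kb. On this scale Bhlhe22 moved from the 8.47th to the 63rd percentile of listed genes between normal adult and tumour libraries, Ntm from the 2.98th to the 42.2nd, and Tex15 from the 1.49th to the 28.7th. In bulk libraries, fewer cells that express a gene and less RNA of it per cell cannot be told apart.

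In the contrast of tumour with P14, which the choice of the genes did not use, Bhlhe22 and Ntm passed the test and Tex15 did not. Bhlhe22 rose by a log2 fold change of 1.74 ± 0.36 from P14 to tumours (3.34-fold, adjusted p = 0.00266 by edgeR's quasi-likelihood test with Benjamini-Hochberg adjustment), and was higher in 4 of 4 tumour libraries than in any P14 library. Ntm rose by 1.97 ± 0.42 (3.92-fold, adjusted p = 0.00316 by edgeR), also in 4 of 4 tumour libraries. Tex15 had a log2 fold change of 1.22 ± 0.55 with a 95% interval from 0.03 to 2.41 (adjusted p = 0.0978 by edgeR), an interval that covers the values of Bhlhe22 and Ntm. Of all tested genes, 19.7% were called higher in tumours than at P14, and 14.8% had tumour values that did not overlap the P14 values and lay above them. Whether the changes of the 3 genes differed from each other was not tested.

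The Tex15 value turned on single tumour libraries: without tumour replicate 3 it was 0.31 (adjusted p = 0.576 by edgeR), and without tumour replicate 4, the shallowest library, it was 1.54 (adjusted p = 0.021 by edgeR). For Bhlhe22 and Ntm the call held when any single library was left out, with Ntm at 1.46 without tumour replicate 2. Among the libraries with Xist alone, Bhlhe22 stood at 1.91 (adjusted p = 0.0476 by edgeR) and Ntm at 1.73 (adjusted p = 0.0972 by edgeR), so the Ntm call was lost there.

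Within the tumour group the 3 genes did not keep the same order of libraries. Bhlhe22 and Ntm were both lowest in tumour replicate 1, from the mouse of 12 weeks, and both above their mean on the log2 scale in replicates 2 and 3. Tex15 was instead second highest in replicate 1 and lowest in replicate 4. With 1 mouse at 12 weeks, 1 at 13 and 2 at 14, age within the tumour group cannot be told apart from the mouse.

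The genes with the most similar profiles were found by the root mean square difference of log2 CPM over the 12 libraries, each gene centred on its mean. Genes were candidates at a mean of at least 1 CPM, predicted genes left out, and the likeness is a description. Bhlhe22 and Ntm were each other's nearest gene, at 0.52 log2 units. After Ntm, the genes nearest to Bhlhe22 were Mmp9, a gelatinase (0.64), Serpina3g, a serine protease inhibitor with close copies in the genome and so of uncertain count (0.66), Rgs16, a regulator of G protein signals (0.72), and Ltbp2, a microfibril-associated protein (0.74). Nearest to Ntm after Bhlhe22 were Mmp9 again (0.62), the transcription factor Sox2 (0.70), and Dio2, which activates thyroid hormone, and Ltbp2 (both 0.75). Mmp9, shared by both, had 0.506 ± 0.136 CPM in normal adult, 1.75 ± 0.356 in P14 and 8.53 ± 4.01 in tumour libraries. Among the genes with profiles nearest to that of Tex15 were Cadps, a protein of vesicle release (0.70), the formin Fhod3 (0.76), Bhlhe22 (0.86) and the LIM protein Fhl5 (0.87). Ntm was number 17 in likeness to Tex15, at 1.01 log2 units.

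Lsamp and Negr1, of the family of Ntm, fell in tumours, where Ntm was higher. Of the other 4 IgLON genes, Lsamp, Negr1 and Opcml were listed and tested. Of these 3, 2 rose and 0 fell at P14 against normal adult, where 14.9% of all tested genes were called higher. In tumours against normal adult 0 rose and 2 fell, where 8.29% of all tested genes were called lower. Negr1 rose from 36.8 ± 7.55 CPM in normal adult to 85.1 ± 11.3 CPM at P14 (log2 fold change 1.21 ± 0.26, adjusted p = 0.00481 by edgeR) and fell to 14.4 ± 6.03 CPM in tumours (-1.35 ± 0.27, adjusted p = 0.00443 by edgeR). Lsamp fell from 19.4 ± 3.14 to 4.61 ± 2.54 CPM in tumours (-2.07 ± 0.30, adjusted p = 0.000712 by edgeR), with no overlap between the groups. Its rise at P14, 0.82 ± 0.28 (adjusted p = 0.0445 by edgeR), was lost when any normal adult or P14 library was left out. Opcml had log2 fold changes of -0.55 ± 0.57 at P14 and -1.57 ± 0.59 in tumours and passed in neither. From P14 to tumours, where 17.3% of all tested genes were called lower, Lsamp fell by 2.88 and Negr1 by 2.56 on the log2 scale (adjusted p = 4.44e-05 and 4.98e-05 by edgeR), against the rise of Ntm. The median over these 3 genes was 0.82 at P14 and -1.57 in tumours, beside 0 over all tested genes in both.

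Per kb of exon, Negr1 had the highest mean of the 4 IgLON genes in normal adult and P14 libraries, at 3.50 ± 0.719 and 8.10 ± 1.07 CPM per kb, and Ntm had it in tumour libraries, at 2.42 ± 1.60 against 1.37 ± 0.574 for Negr1. Ntm made up 1.23 to 2.66% of the summed level per kb of the 4 genes in normal adult libraries, 2.92 to 6.69% in P14 libraries and 24.5 to 70.4% in tumour libraries. The summed level itself was 4.47 to 7.35 CPM per kb in normal adult, 10.9 to 13 in P14 and 2.88 to 7.73 in tumour libraries, so that P14 lay above both other groups, which overlap. Since Ntm was chosen for its increase, these shares are a description.

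**Figure D2:**
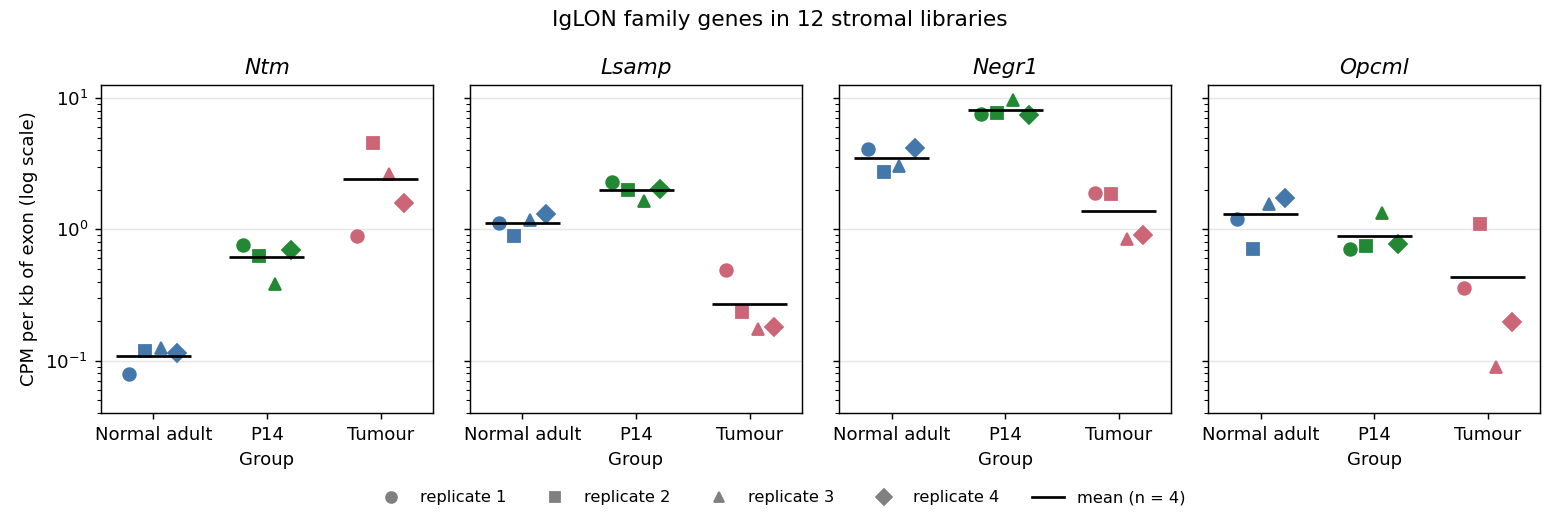
Level of Ntm and of the 3 other listed IgLON genes in each of 12 libraries, in CPM per kb of exon on a log axis, by group, with 1 symbol per replicate and a line at the mean of 4. Tumour values of Ntm lie between 0.885 and 4.56 CPM per kb, above those of normal adult, while those of Lsamp and Negr1 lie below every normal adult value.

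The family and partners of Bhlhe22 were followed gene by gene. Of 12 genes on the list, which held related helix-loop-helix factors, the E proteins that pair with them, Prdm8 and Cdh11, 8 were listed and tested. At P14, 3 rose and 0 fell, and in tumours 1 rose and 1 fell against normal adult, with medians of 0.16 and 0.19. Over all tested genes 14.9% were called higher and 16% lower at P14, and 10.6% and 8.29% in tumours, so 1 of 8 in each direction in tumours is near the background. From P14 to tumours 2 rose and 4 fell, where 19.7% of all tested genes were called higher and 17.3% lower. Its close relatives Bhlhe23, Olig1, Olig2 and Olig3 were not analysed here. Prdm8, the partner of Bhlhe22 in repression, was low throughout, at 1.40 ± 0.390 CPM in normal adult, 1.27 ± 0.463 in P14 and 0.258 ± 0.238 in tumour libraries. It fell from P14 to tumours by 2.18 on the log2 scale (adjusted p = 0.0145 by edgeR), opposite to Bhlhe22. Its fall against normal adult, -2.32 ± 0.61 (adjusted p = 0.0198 by edgeR), was lost without normal adult replicate 1 (adjusted p = 0.0579).

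Cdh11, a mesenchymal cadherin that Bhlhe22 and Prdm8 repress in neurons, went up at P14 from 144 ± 31.5 to 576 ± 43.0 CPM (a log2 change of 2.00 ± 0.26, adjusted p = 0.000403 by edgeR). In tumours it stood at 166 ± 67.7 CPM (0.21 ± 0.26, adjusted p = 0.611 by edgeR). From P14 to tumours Cdh11 had a log2 change of -1.79 ± 0.26 (adjusted p = 0.000333 by edgeR). Both Cdh11 and Bhlhe22 were higher at P14 than in normal adult. In tumours, where Bhlhe22 was highest, the Cdh11 values overlapped those of normal adult. The sum of 10 fibroblast markers was likewise highest in P14. Of these 10, 5 were called higher at P14 and 5 lower from P14 to tumours, beside 14.9% and 17.3% of all tested genes. The part of fibroblast content in the level of Cdh11 and of the 3 genes was not tested. The E proteins Tcf3 and Tcf12 rose at P14 by 0.62 ± 0.14 and 0.70 ± 0.14 (adjusted p = 0.00617 and 0.00254 by edgeR). In tumours Tcf3 stood at 0.43 ± 0.14 (adjusted p = 0.0525 by edgeR), with no overlap with normal adult. Bhlhe41, a circadian repressor, rose from P14 to tumours by 1.92 ± 0.34 (adjusted p = 0.00108 by edgeR). Its rise against normal adult, 1.10 ± 0.33 (adjusted p = 0.0362 by edgeR), was lost in 7 of 12 fits that each left out 1 library: normal adult replicate 1, 2 or 3, P14 replicate 2, or tumour replicate 1, 3 or 4.

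**Figure D3:**
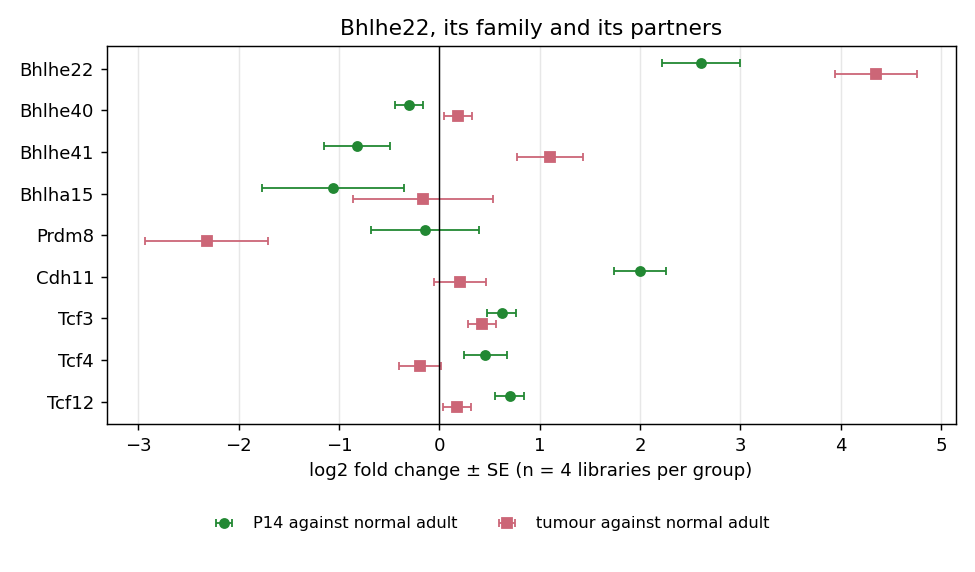
Log2 fold change against normal adult at P14 (circles) and in tumours (squares) for Bhlhe22 and 8 listed genes of its family and partners, with bars of 1 SE. Bhlhe22 lies at 2.61 and 4.35, Cdh11 is high at P14 alone, at 2.00 and 0.21, and Prdm8 lies at -0.14 and -2.32.

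Genes of the germline pathways of Tex15 were followed in 2 lists. Of 25 genes of meiotic recombination and synapsis, 11 were listed and tested, and 14, among them the synaptonemal complex genes Sycp1 and Sycp3, were not analysed here. Of the 11, 3 rose and 0 fell at P14, and 1 rose and 1 fell in tumours against normal adult, with medians of 0.64 and 0.74. The tumour counts are near the background of 10.6% called higher and 8.29% lower, and 14.9% were called higher at P14. From P14 to tumours 1 rose and 2 fell, beside 19.7% of all tested genes called higher and 17.3% lower. Brca2, which loads the recombinase on broken DNA in all dividing cells, rose in both, from 7.13 ± 1.17 CPM in normal adult to 14.8 ± 1.62 at P14 and 13.1 ± 1.12 in tumours (adjusted p = 0.000928 and 0.00324 by edgeR). Dmc1, the recombinase of meiosis, rose at P14 from 1.72 ± 0.720 to 6.09 ± 1.15 CPM (a log2 change of 1.82 ± 0.38, adjusted p = 0.00368 by edgeR) and fell in tumours to 0.506 ± 0.267 CPM (-1.80 ± 0.41, adjusted p = 0.0102 by edgeR). It shared the direction of Tex15 at P14 and had the opposite one in tumours. Stag3, a cohesin subunit of meiosis, had 1.14 ± 0.168 CPM in normal adult and 3.77 ± 0.305 CPM at P14 with no overlap, but its call (1.72 ± 0.56, adjusted p = 0.0337 by edgeR) was lost when any normal adult or P14 library was left out. Spo11, which cuts DNA to start recombination, rose from 0.129 ± 0.0479 CPM at P14 to 2.23 ± 1.94 CPM in tumours (4.09 ± 0.94, adjusted p = 0.00506 by edgeR), although tumour replicate 4 had 0 counts of it. The call of Spo11 was lost with only the 2 groups in the fit, with limma voom and among the libraries with Xist.

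Of 21 genes taken for the piRNA pathway, 7 were listed and tested, and 14, among them Spocd1, which links the pathway to DNA methylation, were not analysed here. Of the 7, 0 rose and 3 fell at P14, where 16% of all tested genes were called lower. In tumours against normal adult 0 rose and 2 fell, where 8.29% of all tested genes were called lower. The medians were -0.69 at P14 and -0.24 in tumours. They include Tex14, a germ cell gene whose part in the pathway is not shown here. Tex14 had 0.71 ± 0.33 at P14 and -0.08 ± 0.33 in tumours and passed in neither. From P14 to tumours 1 rose, Tdrd7, and 0 fell, where 19.7% of all tested genes were called higher. Tdrd7, the most abundant, fell at P14 from 52.9 ± 5.39 to 32.7 ± 1.78 CPM (-0.69 ± 0.12, adjusted p = 0.00137 by edgeR). The calls of Tdrd1 (-2.09 ± 0.63 at P14 and -2.29 ± 0.66 in tumours) and Piwil4 (-1.55 ± 0.55 and -1.85 ± 0.57), both under 3 CPM on average in every group, were each lost in 3 or more of 12 fits that left out 1 library. For Piwil4 these were every normal adult and P14 library or tumour replicate 1 at P14, and every normal adult library, P14 replicate 1 or 2, or tumour replicate 1 or 3 in tumours. For Tdrd1 these were normal adult replicate 2, P14 replicate 1 or P14 replicate 3 at P14, and normal adult replicate 1, 2 or 3 or tumour replicate 1 in tumours.

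**Figure D4:**
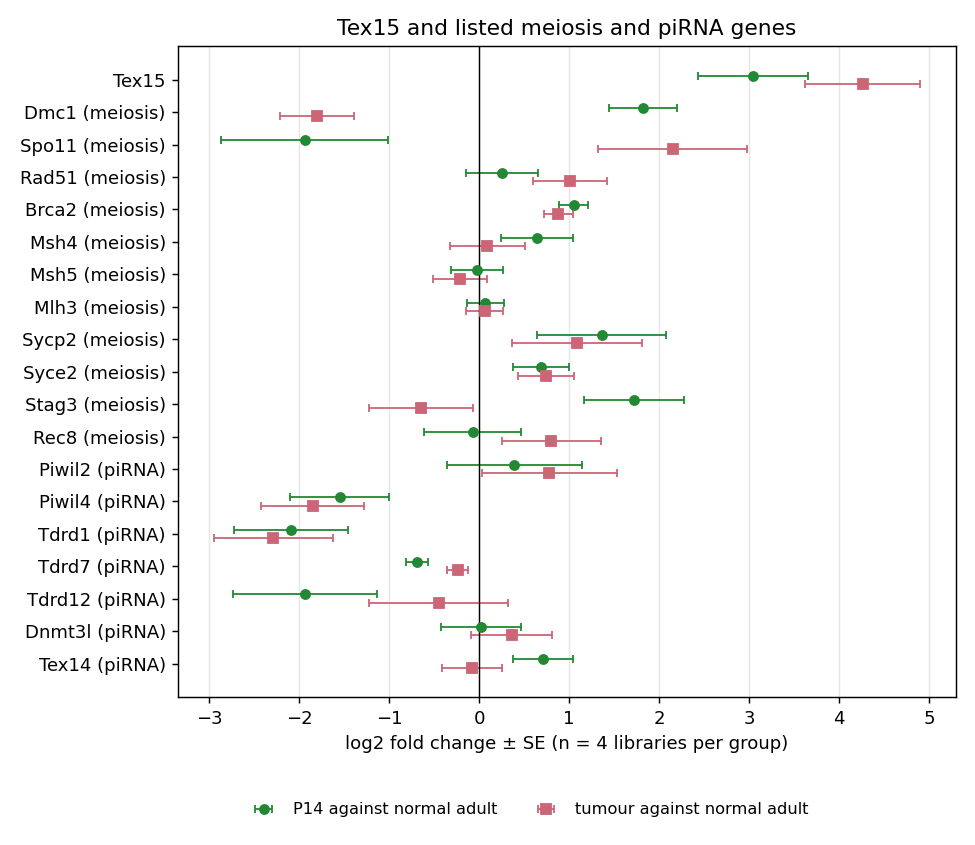
Log2 fold change against normal adult at P14 (circles) and in tumours (squares) for Tex15, 11 genes of meiosis and 7 of the piRNA list, with bars of 1 SE. Tex15 lies at 3.04 and 4.26, and the other genes scatter on both sides of 0.

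Of the genes beside the 3 on their chromosomes, 1 had a similar change. Of all tested genes, 2.84% were called higher in both P14 and tumours against normal adult. The 2 nearest listed genes on each side were taken, 12 in all. The next listed gene at higher coordinates from Bhlhe22 was Cyp7b1, which encodes an oxysterol hydroxylase, 14.4 kb away on the opposite strand. It rose from 4.48 ± 1.63 CPM in normal adult to 19.6 ± 3 at P14 (log2 fold change 2.13 ± 0.31, adjusted p = 0.000642 by edgeR) and to 21.5 ± 7.80 in tumours (2.26 ± 0.31, adjusted p = 0.000499 by edgeR). Unlike Bhlhe22, it did not pass between P14 and tumours (0.13 ± 0.29, adjusted p = 0.747 by edgeR). The other 3 neighbours of Bhlhe22 had log2 fold changes of 0.05 to 0.28 at P14 and of -0.23 (Ythdf3), 1.52 (Gm5844) and 0.96 (Gm43834) in tumours, none of which passed.

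Opcml, 69.3 kb from Ntm and of the same family, did not follow it, as given above. Beyond it, Igsf9b, another immunoglobulin family gene, rose at P14 (1.20 ± 0.30, adjusted p = 0.00929 by edgeR) and had -0.41 ± 0.30 in tumours. Adamts15, a matrix protease 936 kb from Ntm, rose in tumours (1.24 ± 0.33, adjusted p = 0.0217 by edgeR), a call lost without normal adult replicate 1 or tumour replicate 1. Ppp2cb, a phosphatase subunit 14 kb from Tex15, had -0.04 ± 0.15 and -0.05 ± 0.15, and Ubxn8 0.07 ± 0.16 and 0.15 ± 0.16, at P14 and in tumours. Of the 4 neighbours of Tex15, Purg, 99.3 kb away, was the one called at P14 (1.15 ± 0.22, adjusted p = 0.00252 by edgeR), and 0 were called in tumours. These counts are near the background, as 14.9% of all tested genes were called higher at P14 and 10.6% in tumours. Among the 8 libraries with Xist, with 2 normal adult and 2 P14 libraries, 0 of the 14 P14 calls on the 4 lists and the neighbours held. Of the 10 tumour calls against normal adult 2 held, those of Lsamp and Cyp7b1, and of the 16 against P14, 6 held: Lsamp, Negr1, Bhlhe41, Cdh11, Dmc1 and Igsf9b.

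**Figure D5:**
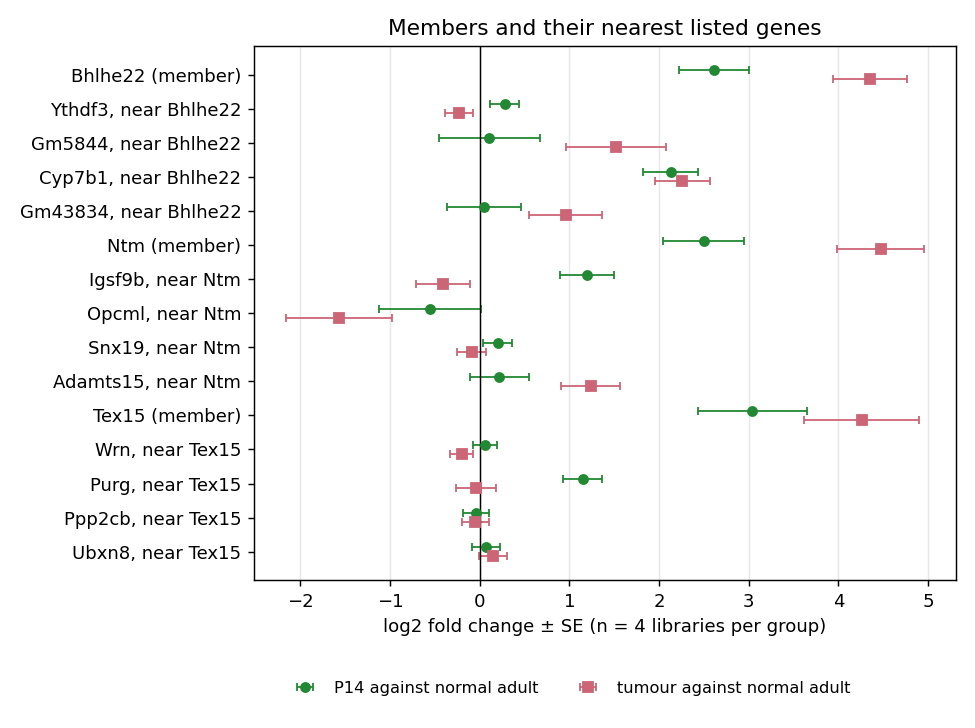
Log2 fold change against normal adult at P14 (circles) and in tumours (squares) for Bhlhe22, Ntm and Tex15 and the 4 nearest listed genes of each, with bars of 1 SE. Cyp7b1, at 2.13 and 2.26, is the neighbour that lies near its member's P14 value of 2.61.

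Marker sums of other cell types by group were as follows. Of all tested genes, 14.9% were called higher and 16% lower at P14 against normal adult, and 10.6% and 8.29% in tumours. The tumour counts of neuron markers below are near these shares. The sum of 11 listed enteric neuron markers was 20.4 to 31.3 CPM in normal adult, 28.7 to 73.6 in P14 and 26.2 to 51.2 in tumour libraries, with 6 markers called higher at P14, and 1 higher and 1 lower in tumours. In tumour replicates 1 to 4 it was 46.8, 26.7, 26.2 and 51.2 CPM, and its part in the results was not tested. The sum of 9 enteric glia markers was 253 to 360, 186 to 295 and 105 to 343 CPM in the same order of groups, with 4 called higher and 2 lower at P14, and 0 higher and 2 lower in tumours. Over tumour replicates 1 to 4 the glia sum was 220, 105, 343 and 188 CPM, and its part in the results was not tested. Smooth muscle markers, 10 in all, summed to 1040 to 1870 CPM in normal adult, 4040 to 8110 in P14 and 1140 to 2180 in tumour libraries, with 10 called higher at P14 and 0 in tumours. Over tumour replicates 1 to 4 the smooth muscle sum was 2180, 1250, 1750 and 1140 CPM. The part of these markers in the P14 and tumour levels of the 3 genes was not tested. Squamous epithelium markers, 10 in all, summed to 13.9 to 353 CPM in normal adult, 73.6 to 156 in P14 and 5330 to 15000 in tumour libraries, with 9 called higher in tumours. In tumour replicates 1 to 4 the sum was 6440, 6150, 5330 and 15000 CPM, and its part in the tumour levels of the 3 genes was not tested.

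Pericyte markers were higher in both comparisons with normal adult: 8 genes summed to 508 to 910 CPM in normal adult, 1870 to 2550 in P14 and 1840 to 3830 in tumour libraries. Of these 8, 7 were called higher at P14 and 8 in tumours, beside 14.9% and 10.6% of all tested genes. Between tumours and P14, 2 were called higher and 1 lower, near the 19.7% and 17.3% of all tested genes. In tumour replicates 1 to 4 the sum was 3830, 2140, 2540 and 1840 CPM, highest in replicate 1 and lowest in replicate 4. Bhlhe22 and Ntm were lowest in replicate 1, and Tex15 was lowest in replicate 4 and highest in replicate 3. The part of pericyte markers in the results was not tested. Proliferation genes, 12 in all, summed to 256 to 655, 696 to 1010 and 597 to 1060 CPM, with 5 called higher at P14 and 6 in tumours. Over tumour replicates 1 to 4 their sum was 597, 766, 641 and 1060 CPM, and their part was not tested either. Epithelial markers of the colon were highest in normal adult libraries, at 6120 to 12800 CPM over 12 genes, against 371 to 2490 in P14 and 1370 to 4990 in tumour libraries. Tumour replicates 1 to 4 had 3770, 1370, 4990 and 3250 CPM of them, and the part of these markers was not tested. In none of these lists was a marker at 0 in all libraries of a group.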

How the data were processed

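RNA-seq of sorted colonic stroma was analysed from 12 libraries, 4 per group. The authors deposited raw counts per gene, not normalized. The submitters' processing notes name GRCm38 as build and, as tools with no stated role, edgeR 3.28.0 and STAR 2.4.2a. Per the labels' protocols, libraries were stranded, made from polyadenylated RNA and read as 75-base single ends. No source used here gives the counter, its annotation or its strand setting. Of 19049 gene IDs, 19012 matched GENCODE M21.

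Tests were run in R 4.3.3 with edgeR 4.0.16 (quasi-likelihood, TMM factors, all 12 libraries in 1 fit, no covariate) after filterByExpr with a minimum count of 10 and a minimum total of 15. Calls needed an adjusted p (Benjamini-Hochberg) below 0.05 over 18727 genes. The script was tested on simulated data. Counting without molecular identifiers limits precision at low counts. No library was a copy of another.

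Members and lists were chosen with earlier results of these data known. Named genes are the members, up to 4 called genes per list and comparison with the genes that define a list, the 2 nearest listed genes on each side and the 5 most alike genes per member, of which 1 is not reported here. Alternatives used DESeq2 1.42.0, limma 3.58.1, other scaling, no filter, fewer libraries, sex and title number.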

Additional observations from a re-analysis of the deposited data

Results flagged for a closer look

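In 96 groups of 4 libraries, for the 3 genes and the tested genes of the 4 lists, 4 groups had 1 library far from the other 3, by Dixon's ratio of gap to range. Chance alone gives about 1 such group in 20. None was a group of Bhlhe22, Ntm or Tex15. P14 replicate 3 stood apart for both Opcml, at 19.4 CPM against 10.3 to 11.2, and Negr1, at 102 CPM against 77.5 to 81.4, while Ntm was at its lowest P14 level there. Tcf3 was 48.8 CPM in tumour replicate 3 against 31.4 to 33.9, and Msh5 was 4.79 CPM in tumour replicate 4 against 1.86 to 2.34.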

How the results depend on the processing

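Title numbers were treated as names: pairing needed a correlation of deviations over 0.1 in every same-number pair, and 3 of 6 pairs, all of number 2, passed it (0.2, 0.31 and 0.22), against -0.29, 0.01 and -0.09 for numbers 3, 6 and 1. With the number as a replicate block the tumour calls of Bhlhe22 and Ntm against P14 were lost: tumour against P14 gave 1.27 for Bhlhe22 and 1.87 for Ntm (adjusted p = 0.0732 and 0.0769 by edgeR), Bhlhe22 at P14 gave 3.12, and all calls numbered 2953 at P14, 818 in tumours and 3740 between them. Among libraries with Xist, chosen after seeing the data, these were 23, 644 and 1999, and Ntm between tumour and P14 gave 1.73. A sex covariate left 2157 calls in tumours. These fits use fewer libraries or leave fewer degrees of freedom, and the cause was not tested further.

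IgLON calls at P14 numbered 1 with library totals alone or the sex covariate and 0 with the replicate block or the Xist libraries, and in tumours 1 with either of the last. Calls of the Bhlhe22 family in tumours numbered 1 with library totals, the replicate block or limma voom and 0 with the sex covariate, the 2 groups alone or the Xist libraries. Between tumour and P14 that family had 2 calls with the block or the Xist libraries. Meiosis calls in tumours numbered 1 with the block. The piRNA calls were 0 with the block in both comparisons with normal adult, 0 in tumours with the sex covariate or the 2 groups alone, and 2 between tumour and P14 with DESeq2 or limma voom. With the Xist libraries the Bhlhe22 family at P14, meiosis at P14 and in tumours and piRNA in all comparisons had 0 calls, and meiosis between tumour and P14 had 1.

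Leaving out 1 library gave 4149 to 6704 calls at P14, 2303 to 4168 in tumours and 5363 to 7601 between them. Ranges for the lists, in the order P14, tumour and tumour against P14, were 1 to 2, 2 to 3 and 2 to 3 (IgLON), 3 to 4, 0 to 3 and 5 to 7 (Bhlhe22 family), 2 to 5, 2 to 5 and 3 to 4 (meiosis), and 1 to 3, 0 to 2 and 1 to 2 (piRNA). For tumour against P14, Tex15 ranged from 0.31 to 1.54, Bhlhe22 from 1.49 to 1.99 and Ntm from 1.46 to 2.25, and for tumours against normal adult Tex15 ranged from 3.35 to 4.59. No alternative run reversed the direction of Bhlhe22, Ntm or Tex15. Library totals alone moved the median of all genes to -0.09 at P14.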
